A study of Mus musculus with 8 samples.

Results

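The genes described here are 46 named genes of red blood cell development: globins, enzymes and carriers of haem synthesis, iron uptake and storage genes, and genes of the red cell membrane with a few enzymes and regulators of late maturation. They were taken by name, and 42 of the 46 were found among the 24011 named genes of the deposited table. The other 4, Hba-a1, Hba-a2, Ahsp and Epb41, were not analysed here. Their levels were compared between 2 populations sorted from the bone marrow of adult C57Bl6 mice, and the labels name no transgene, altered allele or treatment for either. RNA of Lin+ cells, the bulk of marrow cells bearing lineage markers of mature blood, was hybridised to 4 arrays, and RNA of a rare HSC-enriched population to another 4. The sample labels give the latter as LSKCD105+CD48neg, that is lineage-negative, Sca-1-positive and Kit-positive cells with CD105 and without CD48. The design text for the whole series has CD150 where the labels have CD105. The comparison asks how far transcripts of the red cell programme differ between the stem cell population and the maturing marrow cells.

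Red cells are made from stem cells through progenitors and nucleated erythroblasts. Erythroblasts take up iron through the transferrin receptor, build haem in steps shared between mitochondria and cytosol, load it into globin chains, and assemble a membrane skeleton tied to the anion exchanger and the Rh complex before the nucleus is lost. Alas2 is the erythroid form of the first enzyme of haem synthesis and Alas1 the form used by all cells. GATA1 and KLF1 are the transcription factors best known for switching these genes on, while GATA2 acts earlier, in stem cells and progenitors.

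Values are deposited log2 levels, with arrays named by group and replicate number. Array medians ran from 5.22 to 5.33. Since the table holds no detection calls, background was judged by a guide of 5.11, the 95th percentile of 1091 olfactory receptor genes. HSC-enriched means of 9 of the 42 genes, and Lin+ means of 3, lay at or under it, and folds of those genes are less certain. As a check of the labels, 9 of 9 measured stem cell markers were higher in HSC-enriched cells. All 7 B cell, 7 monocyte and 6 T and NK cell markers measured were lower, as were 9 of 10 neutrophil markers. Of 7 megakaryocyte markers, 5 were higher. HSC-enriched means lay at or under the guide for 3 of the B cell, 4 of the monocyte, 5 of the T and NK cell and 1 of the neutrophil markers. HSC-enriched arrays were unequal in neutrophil markers, whose mean level was 6.87 and 6.78 on replicates 1 and 2 and 9.54 and 9.32 on replicates 3 and 4, against 11.74 to 12.00 on Lin+ arrays. The mean of the B cell markers was 6.55 on HSC-enriched replicate 3, against 4.91 to 5.13 on replicates 1, 2 and 4. Whether each sample is a separate animal is not in the labels, and the spread that p-values rest on may therefore be technical. In sorted populations measured in bulk, fewer cells of a type and less RNA per cell cannot be told apart.

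Of the 42 measured red cell genes, 34 were lower and 2 higher in HSC-enriched cells, and 6 did not pass (limma, Benjamini-Hochberg adjusted p under 0.05 over all genes). Among all genes tested, 12.4% were called lower and 15.5% higher. The median difference over the 42 genes was -1.52 (log2, HSC-enriched minus Lin+), against 0.02 over all genes. The 15 genes called at least 4-fold lower compare with 2.67% of all genes under the same rule. Without HSC-enriched replicates 3 and 4, the arrays with the high neutrophil markers, 29 were lower and 2 higher. The losses were unequal in size, from 105-fold for Hbb-bs to 1.32-fold for Fth1.

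**Figure D1:**
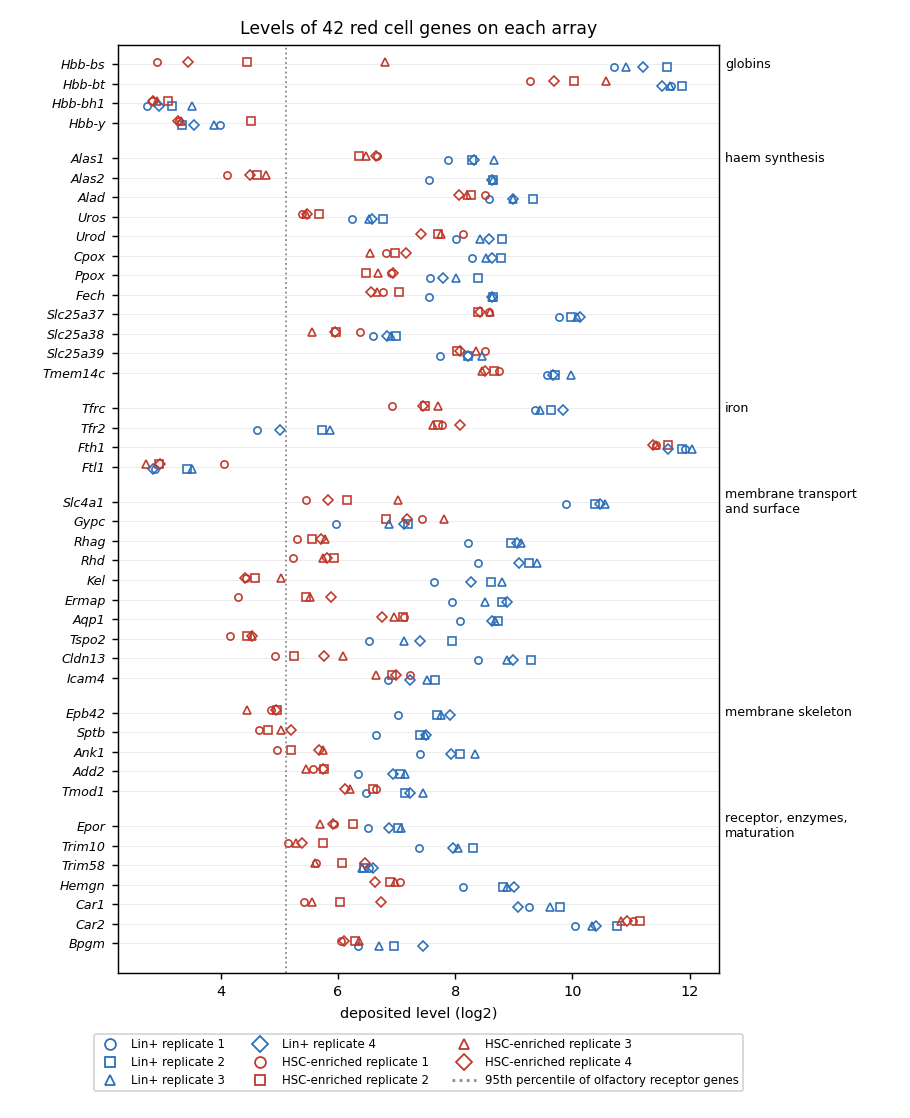
Deposited log2 level (horizontal axis) of each of the 42 measured genes (rows, grouped by role) on the 4 Lin+ (blue) and 4 HSC-enriched (red) arrays, with 1 symbol per replicate and the olfactory receptor guide at 5.11 as a dotted line. Red symbols lie left of blue ones in most rows, while Tfr2 and Car2 show the opposite order and the rows of Hbb-bh1, Hbb-y and Ftl1 lie left of the guide.

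Adult beta-globin was lower at both of its genes, by 105-fold at one and 3.48-fold at the other, and the difference between these falls was not tested. Hbb-bs, an adult beta-globin gene (Entrez gene 100503605), was at 10.72, 11.61, 10.92 and 11.21 on Lin+ replicates 1 to 4 and at 2.91, 4.44, 6.80 and 3.45 on HSC-enriched replicates 1 to 4. The groups lay far apart, and within the HSC-enriched group only replicate 3 was above the guide. The difference was -6.71 ± 0.69 (log2, SE), or 105-fold (adjusted p = 4e-05). It was 183-fold without replicate 3. Its neighbour Hbb-bt (101488143), the other adult beta-globin gene, was at 11.69, 11.87, 11.66 and 11.53 in Lin+ cells and still at 9.27, 10.03, 10.58 and 9.68 in HSC-enriched cells. Its difference was -1.80 ± 0.24, or 3.48-fold (adjusted p = 0.00023). Replicate 3 was the highest and replicate 1 the lowest HSC-enriched array for both genes. These genes are close copies, so probes may take up signal from either, and how the probe sets divide them is not stated in the labels. The embryonic genes Hbb-bh1 and Hbb-y were listed under the guide on all 8 arrays, between 2.75 and 3.50 and between 3.27 and 4.52, and neither passed (adjusted p = 0.523 and 0.873).

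The bases before the start of both adult genes are shown because the copies have diverged there although they lie side by side. The sequences are RefSeq's for build GRCm38.p6, the 250 bases before the annotated start, 5′ to 3′ on the gene's strand, with capitals for AGATAA or TGATAA on either strand, letters that GATA factors bind.
Hbb-bs, chr7:103827929-103828178, minus strand: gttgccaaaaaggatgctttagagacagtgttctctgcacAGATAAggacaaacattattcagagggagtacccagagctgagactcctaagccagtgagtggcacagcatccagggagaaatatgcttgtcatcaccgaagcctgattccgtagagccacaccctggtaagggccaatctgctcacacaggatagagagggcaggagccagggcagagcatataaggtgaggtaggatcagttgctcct
Hbb-bt, chr7:103813924-103814173, minus strand: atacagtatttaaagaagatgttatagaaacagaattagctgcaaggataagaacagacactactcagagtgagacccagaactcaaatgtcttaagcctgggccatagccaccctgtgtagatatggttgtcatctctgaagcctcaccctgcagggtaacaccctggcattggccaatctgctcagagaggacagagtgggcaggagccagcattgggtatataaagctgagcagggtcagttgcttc
Aligned end to end, the pair was identical in 178 of 257 columns, or 69.3%. Hbb-bs held 1 match, beginning 210 bases before its start, and these exact letters are not in this window of Hbb-bt. In the similar stretch Hbb-bt reads ggataa, which differs from AGATAA in the first letter only.

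Haem synthesis genes were lower at each enzyme step measured, with the largest differences at the first. Of the 12 enzymes and carriers measured, 11 were lower and 0 higher, and Slc25a39 missed the threshold. Their median difference was -1.17. Alas2 (11656), the erythroid first enzyme, was at 7.56, 8.64, 8.65 and 8.63 on Lin+ replicates 1 to 4 and at 4.10, 4.62, 4.77 and 4.50 on the HSC-enriched arrays. All HSC-enriched values lay under the guide, and Lin+ replicate 1 stood clearly below the other Lin+ arrays. The difference was -3.87 ± 0.25, or 14.6-fold (adjusted p = 2.1e-06), a fold that rests on a mean near background. Alas1 (11655), the form of all cells, was at 7.87, 8.29, 8.65 and 8.32 in Lin+ cells and at 6.66, 6.35, 6.47 and 6.65 in HSC-enriched cells, well above the guide in both. It was 3.37-fold lower (adjusted p = 1.9e-05).

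Promoters of these genes are set side by side because one form is erythroid and the other general (RefSeq, GRCm38.p6, the same 250 bases and capitals; the first listed of 2 starts for Alas1).
Alas2, chrX:150547167-150547416, plus strand: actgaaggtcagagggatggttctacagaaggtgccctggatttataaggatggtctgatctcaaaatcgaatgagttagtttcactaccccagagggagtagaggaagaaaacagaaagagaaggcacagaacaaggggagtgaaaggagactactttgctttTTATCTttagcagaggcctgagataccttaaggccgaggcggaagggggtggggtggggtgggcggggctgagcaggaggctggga
Alas1, chr9:106247955-106248204, minus strand: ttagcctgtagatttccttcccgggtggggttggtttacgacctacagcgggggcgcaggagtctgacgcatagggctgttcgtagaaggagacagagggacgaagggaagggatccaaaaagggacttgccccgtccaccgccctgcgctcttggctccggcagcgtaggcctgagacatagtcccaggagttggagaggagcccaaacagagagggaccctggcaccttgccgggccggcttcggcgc
Alas2 held 1 GATA match on the reverse strand, beginning 86 bases before its start, and the letters are not in this window of Alas1.

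The differences of the later enzymes were smaller in size than that of Alas2, without a test between genes. Cpox, which turns side chains of the porphyrin precursor into vinyl groups, and Ppox, which oxidises the ring, were 3.20-fold and 2.29-fold lower, and Fech, which inserts iron, was 3.03-fold lower. Fech was at 7.55 on Lin+ replicate 1 and 8.62 to 8.64 on the other Lin+ arrays, against 6.56 to 7.04 on HSC-enriched arrays. Uros, which closes the ring, was 2.05-fold lower (adjusted p = 0.00016). Alad and Urod, the cytosolic enzymes before and after ring closure, were each lower by a fold of 1.63. Their calls were the weakest of the pathway (adjusted p = 0.008 and 0.0175). The Urod groups overlapped, since HSC-enriched replicate 1 at 8.12 lay above Lin+ replicate 1 at 8.02. Without HSC-enriched replicates 3 and 4 neither passed (adjusted p = 0.082 and 0.13), and Urod did not without Lin+ replicate 2 (adjusted p = 0.052).

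Mitochondrial carriers were lower too, with 1 exception. Slc25a37 (mitoferrin 1, which brings iron into mitochondria) was at 9.77 to 10.12 in Lin+ and 8.39 to 8.59 in HSC-enriched cells, 2.81-fold lower (adjusted p = 5e-06). Slc25a38, the glycine carrier that supplies the first step, and Tmem14c, needed for porphyrin import, were 1.83-fold and 2.20-fold lower. Slc25a39, a carrier needed for mitochondrial glutathione, was at 7.75 to 8.46 in Lin+ and 8.03 to 8.50 in HSC-enriched cells. These ranges overlap almost fully, and its difference was 0.08 with a 95% confidence interval from -0.29 to 0.46.

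**Figure D2:**
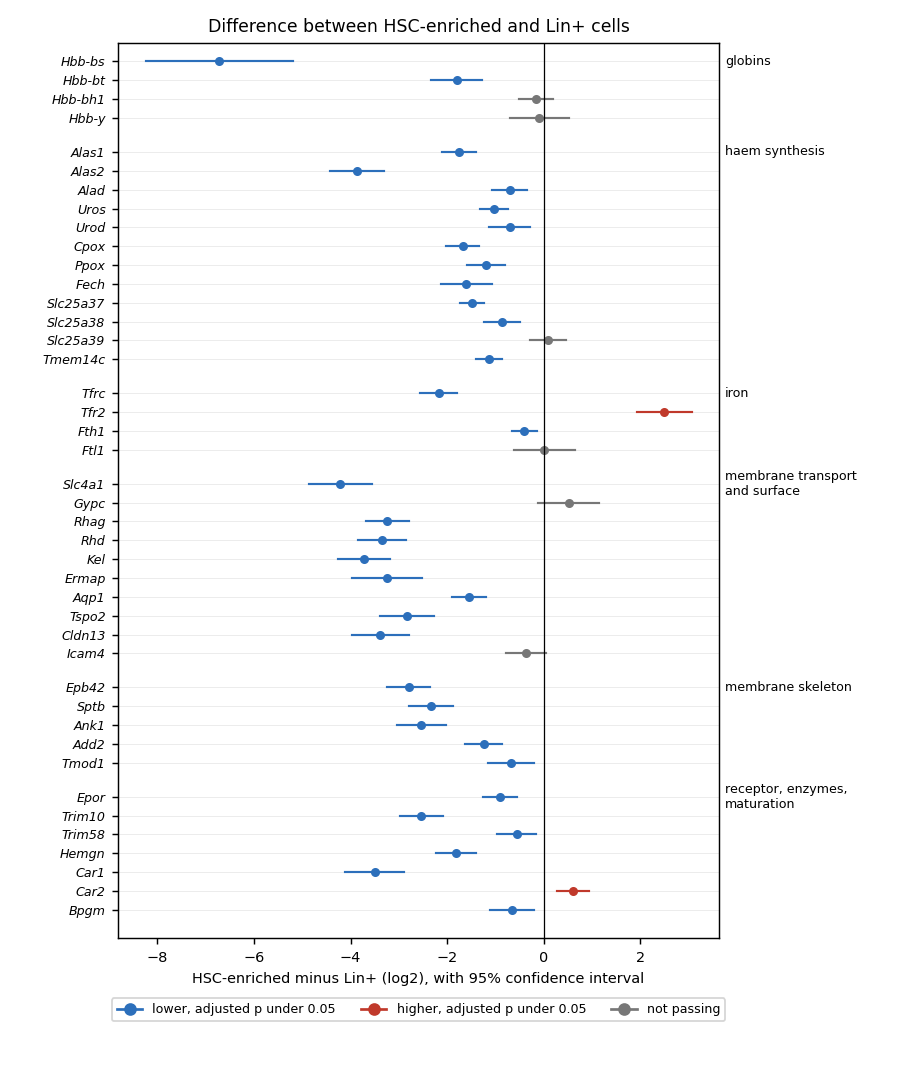
HSC-enriched minus Lin+ difference (log2, point) with its 95% confidence interval (line) for each of the 42 genes, grouped by role, in blue where called lower, red where called higher and grey where not passing. Hbb-bs has the largest loss and the widest interval (-8.24 to -5.18), and Tfr2 stands alone at the right at 2.49.

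Iron genes split, with the 2 transferrin receptors moving in opposite directions. Tfrc (22042), which takes up transferrin-bound iron, was at 9.35, 9.64, 9.44 and 9.84 on Lin+ and at 6.93, 7.49, 7.70 and 7.44 on HSC-enriched arrays, 4.52-fold lower (adjusted p = 7.5e-06). Tfr2 (50765), a second receptor known as an iron sensor in liver and erythroid cells, was at 4.62, 5.72, 5.87 and 5.01 in Lin+ cells and at 7.78, 7.71, 7.61 and 8.08 in HSC-enriched cells. It was 5.62-fold higher (2.49 ± 0.26, adjusted p = 4.1e-05), the larger of the 2 rises in the list. Fth1, the ferritin heavy chain, was high everywhere, at 11.63 to 12.03 and 11.37 to 11.64, and its groups overlapped. It was lower by 1.32-fold (adjusted p = 0.0267), a call lost with quantile normalization (-0.15, adjusted p = 0.41). It also missed the threshold when any of HSC-enriched replicates 1, 3 and 4 or Lin+ replicates 1, 2 and 3 was left out (adjusted p = 0.06 to 0.075), and with HSC-enriched replicates 3 and 4 both left out (adjusted p = 0.18). Ftl1, the ferritin light chain, was listed under the guide on every array, at 2.72 to 4.06, so no difference could be read for it.

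Upstream bases of Tfr2 are shown as those of a gene that was higher (RefSeq, GRCm38.p6, the same capitals). Of its 3 listed starts, the window with a match is given.
Tfr2, chr5:137570725-137570974, plus strand: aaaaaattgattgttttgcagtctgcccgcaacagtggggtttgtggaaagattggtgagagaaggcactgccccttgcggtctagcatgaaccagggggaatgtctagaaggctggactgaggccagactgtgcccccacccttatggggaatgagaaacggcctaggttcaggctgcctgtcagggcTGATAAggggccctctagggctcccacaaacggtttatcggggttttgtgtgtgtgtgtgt
The match begins 61 bases before that start.

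Genes of the membrane and blood group antigens were mostly several-fold lower. Of 10 measured, 8 were lower with differences from -4.21 to -1.54, and Gypc and Icam4 did not pass. Over the 10 genes the median difference was -3.24. Slc4a1 (20533), the band 3 anion exchanger, was at 9.90, 10.38, 10.55 and 10.47 on Lin+ arrays and at 5.46, 6.15, 7.02 and 5.83 on HSC-enriched arrays. All HSC-enriched values stayed above the guide, and replicate 3 was again the highest. The difference was -4.21 ± 0.29, or 18.5-fold (adjusted p = 3.2e-06). Kel (23925), the Kell antigen protease, was at 7.63, 8.61, 8.80 and 8.27 in Lin+ cells and at 4.42, 4.59, 5.02 and 4.41 in HSC-enriched cells, all 4 of the latter under the guide. It was 13.1-fold lower (adjusted p = 2.1e-06).

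Rhag and Rhd, which form the Rh complex, both fell. Rhag was at 8.22, 8.95, 9.11 and 9.05 on Lin+ and at 5.31, 5.56, 5.78 and 5.71 on HSC-enriched arrays, 9.46-fold lower, and Rhd was 10.2-fold lower (adjusted p = 1.5e-06 and 2.6e-06). Cldn13, a claudin gene, and Ermap, which carries the Scianna antigens, were 10.4-fold and 9.50-fold lower. On HSC-enriched arrays Ermap ran from 4.29 on replicate 1 to 5.88 on replicate 4. Tspo2, an erythroid relative of the mitochondrial translocator protein, was 7.14-fold lower with a mean of 4.42, under the guide. Aqp1, the water channel of the red cell, was 2.91-fold lower, from 8.53 ± 0.30 to 6.99 ± 0.18 (SD, n = 4).

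The 2 exceptions are surface proteins with levels above the guide in both populations. Gypc, glycophorin C, was at 5.97, 7.20, 6.87 and 7.12 in Lin+ cells and at 7.43, 6.82, 7.80 and 7.17 in HSC-enriched cells. The groups overlapped apart from the low Lin+ replicate 1, and the difference was 0.52 with an interval from -0.12 to 1.15 (adjusted p = 0.236). Icam4, the Landsteiner-Wiener antigen, differed by -0.37 (interval -0.78 to 0.045, adjusted p = 0.191). It passed without Lin+ replicate 1 (-0.52, adjusted p = 0.04).

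All 5 measured genes of the membrane skeleton were lower, with a median difference of -2.34. Epb42, which ties the anion exchanger to the skeleton, was at 7.02, 7.69, 7.76 and 7.91 on Lin+ arrays and at 4.85, 4.95, 4.45 and 4.94 on HSC-enriched arrays, 6.95-fold lower (adjusted p = 3.4e-06). Its HSC-enriched values lay under the guide. Ank1, ankyrin, and Sptb, beta-spectrin, were 5.81-fold and 5.05-fold lower, and Add2, beta-adducin, 2.37-fold (adjusted p = 1.7e-05, 1.3e-05 and 0.00032). The HSC-enriched mean of Sptb, 4.92, also lay under the guide. Tmod1, which caps the short actin filaments of the skeleton, was lower by 1.60-fold with overlapping groups (adjusted p = 0.035). Its call was lost without any one of HSC-enriched replicates 3 and 4 or Lin+ replicates 2, 3 and 4 (adjusted p = 0.082 to 0.098), and with HSC-enriched replicates 3 and 4 both removed (adjusted p = 0.27).

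Upstream bases of 3 membrane and skeleton genes are printed as examples of genes at least 4-fold lower that hold a GATA match (RefSeq, GRCm38.p6, the same 250 bases and capitals).
Kel, chr6:41704326-41704575, minus strand: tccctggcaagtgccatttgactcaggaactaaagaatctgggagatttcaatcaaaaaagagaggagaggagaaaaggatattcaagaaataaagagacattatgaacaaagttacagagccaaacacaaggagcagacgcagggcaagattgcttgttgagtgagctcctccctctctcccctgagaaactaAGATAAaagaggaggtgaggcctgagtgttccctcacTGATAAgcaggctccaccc
Rhag, chr17:40810899-40811148, plus strand: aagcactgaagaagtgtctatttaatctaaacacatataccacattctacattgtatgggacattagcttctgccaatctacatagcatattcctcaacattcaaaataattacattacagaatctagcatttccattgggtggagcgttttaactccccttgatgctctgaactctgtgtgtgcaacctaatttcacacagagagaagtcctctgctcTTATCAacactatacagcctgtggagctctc
Epb42, chr2:121036878-121037127, minus strand: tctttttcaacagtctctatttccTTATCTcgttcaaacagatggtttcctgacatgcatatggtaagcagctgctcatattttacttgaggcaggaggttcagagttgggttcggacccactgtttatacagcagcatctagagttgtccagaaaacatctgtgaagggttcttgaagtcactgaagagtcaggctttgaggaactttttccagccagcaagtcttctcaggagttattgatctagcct
Kel held 2 matches, beginning 56 and 19 bases before its start, Rhag 1 at 31 bases and Epb42 1 at 226 bases.

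The remaining genes, a receptor, enzymes and regulators of late maturation, were mixed in size, with 6 of 7 lower and 1 higher. Car1 and Car2 encode carbonic anhydrases. Car1 (12346) was at 9.26, 9.79, 9.62 and 9.08 in Lin+ cells and at 5.42, 6.03, 5.56 and 6.73 in HSC-enriched cells, 11.3-fold lower (adjusted p = 6.6e-06). Car2 (12349) was at 10.05, 10.75, 10.34 and 10.40 in Lin+ cells and at 11.04, 11.16, 10.82 and 10.93 in HSC-enriched cells. Although the nearest arrays were only 10.75 and 10.82, the groups did not overlap, and Car2 was 1.52-fold higher (adjusted p = 0.0124). The 2 enzymes thus moved in opposite directions.

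Epor, the erythropoietin receptor, was lower by 1.88-fold, from 6.86 ± 0.25 to 5.95 ± 0.24 (SD, n = 4, adjusted p = 0.0014). Trim10 and Hemgn, both known from late erythroid differentiation, were 5.79-fold and 3.52-fold lower. Trim58, a ubiquitin ligase of enucleating erythroblasts, and Bpgm, which makes the bisphosphoglycerate that tunes oxygen release, were lower by 1.47-fold and 1.58-fold with overlapping groups (adjusted p = 0.0428 and 0.0358). Trim58 was at 6.46 on HSC-enriched replicate 4, within the Lin+ range of 6.41 to 6.60. Both calls depended on single arrays. Trim58 was lost without any one array other than HSC-enriched replicate 4 (adjusted p = 0.062 to 0.12) and with quantile normalization (adjusted p = 0.05). Bpgm was lost without any one of HSC-enriched replicates 1, 2 and 4 or Lin+ replicates 2, 3 and 4 (adjusted p = 0.05 to 0.089) and with HSC-enriched replicates 3 and 4 both removed (adjusted p = 0.11).

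Alas2 and Alas1, Car1 and Car2, and Tfrc and Tfr2 changed unequally. The within-array log2 difference of 6 measured pairs was compared between the groups by a two-sided exact permutation test over 8 arrays, whose smallest p with 70 regroupings is 0.0286. Alas2 minus Alas1 differed by -2.12, Car1 minus Car2 by -4.11, Tfrc minus Tfr2 by -4.67 and Hbb-bt minus Hbb-bh1 by -1.63. Each of these 4 had the smallest possible p (adjusted over the 6 pairs, 0.0429), and HSC-enriched and Lin+ values of each did not overlap. Since Hbb-bh1 lay under the guide on all 8 arrays, its pair restates the fall of Hbb-bt and does not compare the 2 genes. Car1 and Tfrc were lower, and Car2 and Tfr2 higher, without overlap of the groups. The smallest p was therefore fixed for those pairs, and it restates the opposite calls. Alas2 lay under the guide on all HSC-enriched arrays, and Tfr2 on Lin+ replicates 1 and 4, so the sizes for their pairs are not exact. Slc25a37 minus Slc25a38 differed by -0.62 (exact p = 0.0571, adjusted p = 0.0686) and Fth1 minus Ftl1, with Ftl1 under the guide throughout, by -0.41 (exact p = 0.314). Without Lin+ replicate 1 or 2, the 4 calls were lost (adjusted p = 0.0571 for Alas2, Car1 and Tfrc with their partners, 0.0857 and 0.0686 for Hbb-bt), while their differences stayed between -4.78 and -1.51. Without HSC-enriched replicate 3, Slc25a37 minus Slc25a38 passed (-0.79, adjusted p = 0.0343).

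**Figure D3:**
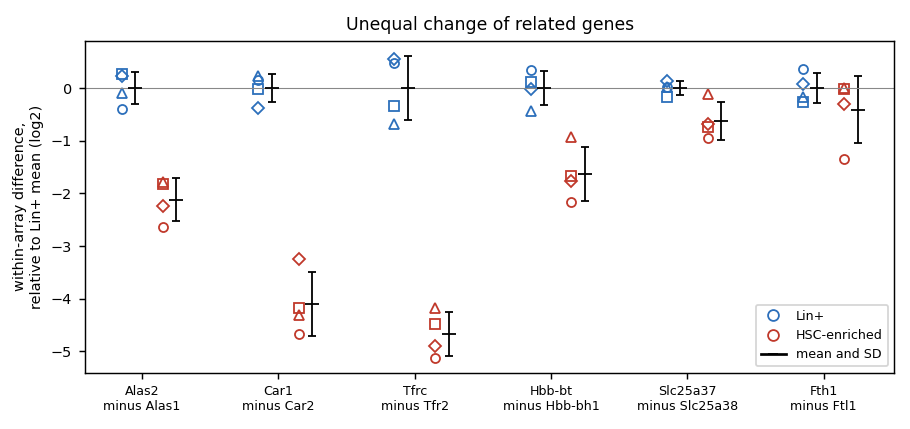
Within-array difference between 2 related genes (log2), set to a mean of 0 in Lin+ arrays, for 6 pairs, with 1 symbol per array (blue Lin+, red HSC-enriched) and the mean and SD in black. The HSC-enriched arrays lie wholly below the Lin+ arrays for Alas2, Car1, Tfrc and Hbb-bt with their partners, and overlap them for the other pairs.

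Lin+ replicate 1 was the lowest Lin+ array for most of these genes. Of the 42 genes, 36 had their lowest Lin+ value there, or 85.7%, against 25.9% of all genes and 44.0% of all genes called lower. For the 34 called lower, its level differed from the mean of the other 3 Lin+ arrays by a median of -0.59 (log2), with both Alas2 and Fech at -1.08. The 4 of the 34 with their lowest Lin+ value elsewhere were Hbb-bt, Fth1, Trim58 and Car1. Over all genes the same median was 0.01. The B cell markers had a mean of 10.36 there and of 9.69 to 9.96 elsewhere in Lin+ cells. For neutrophil markers the mean was 11.74 there and 11.90 to 12.00 elsewhere, for monocyte markers 8.84 and 9.08 to 9.31, and for T and NK cell markers 8.11 and 8.03 to 8.41. The part of these marker levels in the result was not tested. Without Lin+ replicate 1, 33 of the 42 genes were lower and 2 higher.

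Over the 42 genes, the highest HSC-enriched array varied from gene to gene. It was replicate 1 for 11 genes, replicate 2 for 11, replicate 3 for 12 and replicate 4 for 8. Replicate 3 was the highest for 28.6% of the 42, against 21.8% of all genes and 30.6% of all genes called lower. None of the genes called at least 4-fold lower was highest on replicate 1. Among them, Hbb-bs, Alas2, Tfrc, Slc4a1, Rhag, Kel, Cldn13 and Ank1 were highest on replicate 3, and the rest on replicate 2 or 4. The lowest array was more uniform among the genes called at least 4-fold lower. All of these but Kel and Epb42 had their lowest HSC-enriched value on replicate 1. The share of all genes with their lowest HSC-enriched value there was not counted. Whether this order is particular to the listed genes therefore cannot be said. The mean over the 34 genes called lower was 6.18, 6.44, 6.49 and 6.39 on HSC-enriched replicates 1 to 4. It was 8.07, 8.71, 8.63 and 8.59 on Lin+ replicates 1 to 4. The SD of this mean over the 4 HSC-enriched arrays was 0.13. For the means of the marker lists it was 1.51 for neutrophil, 0.76 for B cell and 0.32 for monocyte markers. It was 0.18 for T and NK cell and 0.07 for stem cell markers. For single genes of the 34 the SD ran from 0.10 for Slc25a37 to 1.72 for Hbb-bs, and was 0.66 for Slc4a1.

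**Figure D4:**
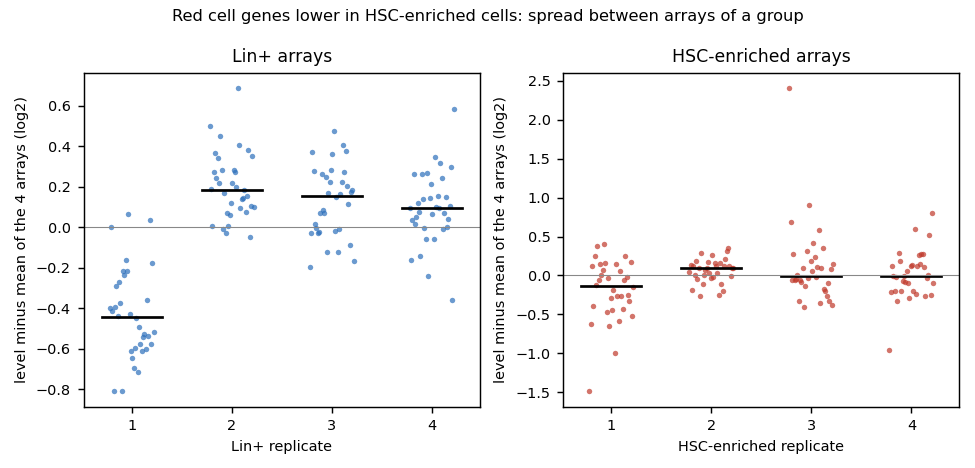
Level on each array minus the mean of its group's 4 arrays (log2, vertical axes of different range) for the 34 genes called lower, with 1 point per gene and a black line at the median. Lin+ replicate 1 lies below 0 for nearly all genes, while the HSC-enriched medians stay near 0 and the highest point is Hbb-bs on replicate 3.

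Other genes of the same pathways, from lists drawn up beside the 46, were mixed in direction. In each of the haem, iron and membrane lists more genes were lower than higher. To set beside the counts of these lists and of the transcription factors below, 12.4% of all genes were called lower and 15.5% higher. Of 16 other haem genes measured, 8 were lower and 3 higher, with a median of -0.25. Hmox1, which degrades haem, was at 8.71 to 9.77 in Lin+ and 5.72 to 6.26 in HSC-enriched cells, 11.3-fold lower. Blvrb, biliverdin reductase B, was 3.35-fold lower. Pgrmc1, a haem-binding membrane protein, and Slc48a1, a haem transporter, were 2.47-fold and 1.60-fold higher. Hmox2 (0.23) and Blvra (0.07) did not pass.

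Of 25 other iron genes, 10 were lower and 2 higher, with a median of -0.26. Slc40a1, the iron exporter ferroportin, was 16.4-fold lower, at 7.78, 8.32, 8.57 and 8.70 on Lin+ and at 4.70, 3.87, 4.10 and 4.54 on HSC-enriched arrays, the latter under the guide. Ltf, the lactoferrin of neutrophil granules, was 19.1-fold lower, at 6.14 and 6.19 on HSC-enriched replicates 1 and 2 and 9.10 and 9.46 on replicates 3 and 4. Ltf is one of the neutrophil markers, whose mean was also higher on replicates 3 and 4 than on 1 and 2. It was 56.3-fold lower without replicates 3 and 4. Hscb, a co-chaperone of iron-sulfur cluster assembly, was 2.65-fold higher (adjusted p = 6.9e-06), and Slc39a14, a metal importer, 1.58-fold, the latter not passing without HSC-enriched replicates 3 and 4 (adjusted p = 0.084). Pcbp2 (-0.01) did not pass, nor did Isca1 (0.44, adjusted p = 0.0627), which passed with the filters, with quantile normalization, with a trended robust variance, and when HSC-enriched replicate 1 or 3 was left out (adjusted p = 0.019 to 0.048).

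Of 22 further membrane and skeleton genes, 8 were lower and 5 higher, with a median of -0.10. Stom, stomatin, and Add3, gamma-adducin, were 4.56-fold and 3.37-fold lower. Atp2b4, a calcium pump, and Cd59a, a complement inhibitor, were 3.43-fold and 2.19-fold higher, and Actb (-0.17) and Cd47 (-0.06) did not pass. Without HSC-enriched replicates 3 and 4, 3 genes of this list were higher.

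The list of transcription factors was mixed, and more of them were higher than lower in HSC-enriched cells. It holds Klf1 and Gata1, known for switching red cell genes on, beside factors such as Gata2 that act earlier. Of 16 measured, 9 were higher, 3 lower and 4 did not pass, with a median of 0.48. The 3 lower were Klf1, Gata1 and Sox6. Klf1 was at 7.03, 8.14, 7.95 and 7.34 on Lin+ and at 5.75, 5.49, 5.72 and 5.91 on HSC-enriched arrays, 3.72-fold lower (adjusted p = 0.00012). Gata2 was at 5.70, 6.35, 6.89 and 6.24 in Lin+ cells and at 9.67, 9.72, 9.45 and 9.40 in HSC-enriched cells, 9.63-fold higher (adjusted p = 2.3e-06). Lmo2, a partner of GATA factors in a shared complex, was 2.60-fold higher, and Tal1, Ldb1 and Gfi1b, chosen after their values were seen, were 1.99-fold, 2.01-fold and 2.21-fold higher. Gata1 was at 6.96, 7.45, 7.82 and 7.44 in Lin+ and at 7.05, 7.03, 6.49 and 6.21 in HSC-enriched cells, with overlapping groups. It was lower by 1.65-fold (adjusted p = 0.0374), a call lost without any one of HSC-enriched replicates 3 and 4 or Lin+ replicates 2, 3 and 4 (adjusted p = 0.079 to 0.1) and with HSC-enriched replicates 3 and 4 both removed (-0.38, adjusted p = 0.3). Sox6, also lower (-0.39, adjusted p = 0.0367, named after its values were seen), lost its call without any one of HSC-enriched replicates 1, 3 and 4 or Lin+ replicates 2, 3 and 4 (adjusted p = 0.051 to 0.098). The Sox6 call was also lost with HSC-enriched replicates 3 and 4 both removed. With a trended robust variance, 2 factors of this list were lower. Klf1 kept its call in all 17 alternatives tried. E2f4 (-0.39) and Tfdp2 (0.08) did not pass.

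**Figure D5:**
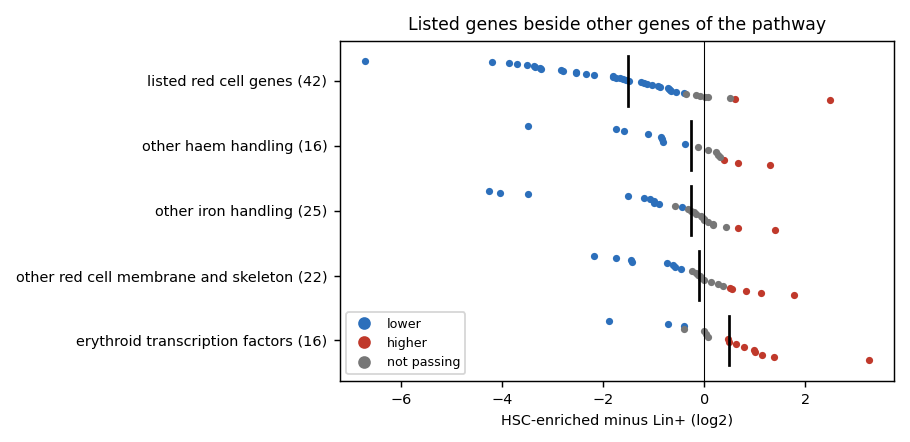
HSC-enriched minus Lin+ difference (log2, horizontal axis) of each measured gene in the list of 42 and in 4 further lists, with the number measured in brackets, coloured by call, and a black line at each median. The median of the 42 genes lies at -1.52, those of the other haem, iron and membrane lists between -0.26 and -0.10, and that of the transcription factors at 0.48.

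GATA letters were common before the starts of the listed genes. RefSeq windows (GRCm38.p6) were found for 36 of the 46 genes, and 17 of the 36 (47.2%) held AGATAA or TGATAA on either strand in the 250 bases before a listed start, against 18.8% of all 27025 genes with a window. Among the 33 of them that were measured, 8 of the 11 called at least 4-fold lower held a match, against 7 of the other 22. Slc4a1, Car1, Ank1 and Cldn13, also at least 4-fold lower, had no window and are not in these counts. The median difference was -2.53 for the 15 measured genes with a match and -1.004 for the 18 without, while over all measured genes it was 0.00 with and 0.03 without. The letters CCNCNCCC, of the kind that KLF factors bind and that cannot overlap a GATA match, searched on both strands, were held by 23 of the 36 (63.9%), against 48.5% of all genes. Here the order was the reverse, with a median of -1.09 for the 22 measured genes with a match and -2.53 for the 11 without. These are counts of letters and not of bound sites, and genes with several starts had more windows in which a match could lie.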

How the data were processed

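Total RNA of sorted bone marrow cells was amplified with the Ovation Pico system and hybridised to Affymetrix MouseGene arrays (1.0st and 2.0st are both named), per the labels' protocols. The authors deposited log2 values of 24973 probe sets on 8 arrays; RMA and Partek are named per the submitters' processing notes, without versions. For the build and the probe set definition, nothing is given in the sources used here. A symbol was found for 24015 probe sets, none for 958 and several for 0, and 23922 took RefSeq's current symbol through their Entrez gene ID (GRCm38.p6). The brightest probe set per symbol was kept, giving 24011 genes.

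Differences are HSC-enriched minus Lin+, from limma 3.58.1 (R 4.3.3, lmFit and eBayes, no covariates, no filter), adjusted by Benjamini-Hochberg over all genes at 0.05. The fit was tested on simulated data. Alternatives were centring, quantile normalization, 2 filters on low values, probe set means, a trended robust variance, arrays weighted, a block on replicate number, each array left out, and HSC-enriched replicates 3 and 4 left out. Pairs of genes were compared by exact permutation (SciPy 1.17.1). Of 7 planned pairs, 6 were measured. Members, lists, pairs, alternatives and motifs were chosen with earlier results of these data known. All measured members are named. In each other list the rule took up to 2 risers, 2 fallers and the 2 highest genes not passing. With 4 arrays per group, their number limits the precision.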

Additional observations from a re-analysis of the deposited data

Results flagged for a closer look

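In each group of 4 arrays, the gap between the highest or lowest array and its neighbour was compared with the group's range (Dixon's 95% limit). Over 132 groups of values this marked 8, and chance marks about 1 in 20. Lin+ replicate 1 stood apart as the lowest Lin+ array for Alas2 (7.56), Fech (7.55), Aqp1 (8.08) and Sptb (6.65). HSC-enriched replicate 2 stood apart as the highest for Hbb-y (4.52, under the olfactory receptor guide) and Atp2b4 (8.81). HSC-enriched replicate 1 was the highest for Blvra (8.55) and the lowest for Tfdp2 (7.60).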

How the results depend on the processing

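Over 17 alternatives, from 29 to 34 of the 42 genes were lower and 2 higher, and 30 of the 36 calls held in all 17. Alad, Urod, Fth1, Tmod1, Trim58 and Bpgm lost theirs in 1 to 8 alternatives. Same-numbered arrays did not deviate together (correlations of deviations from -0.15 to 0.06), so the numbers were not taken as pairs. With the replicate number as a block, 32 were lower and 2 higher, and Urod, Tmod1, Gata1 and Sox6 lost their calls. Leaving out 1 array gave 29 to 33 lower. The within-array differences then ran from -2.25 to -1.95 for Alas2 minus Alas1, -4.39 to -3.92 for Car1 minus Car2, -4.90 to -4.48 for Tfrc minus Tfr2, -1.86 to -1.45 for Hbb-bt minus Hbb-bh1 and -0.79 to -0.51 for Slc25a37 minus Slc25a38. Without HSC-enriched replicates 3 and 4 the pair test cannot fall below 0.0667. Direction changed only among genes that did not pass. Hbb-y was 0.21 without HSC-enriched replicates 3 and 4, 0.015 with array weights and from -0.396 to 0.0182 without single arrays. Slc25a39 ran from -0.053 to 0.186 without single arrays. Ftl1 was -0.086 with array weights, -0.0062 with centring and from -0.29 to 0.161 without single arrays. Without single arrays Blvra ran from -0.131 to 0.142, Tfdp2 from -0.027 to 0.157 and Cd47 from -0.118 to 0.0019, and Cd47 was 0.128 with quantile normalization. Pcbp2 was 0.097 with quantile normalization, 0.079 without HSC-enriched replicates 3 and 4 and from -0.066 to 0.028 without single arrays. The cause was not tested. Values under the olfactory receptor guide limit what can be read of Hbb-bh1, Hbb-y and Ftl1.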
